A study of Drosophila melanogaster with 12 samples.

Results

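The genes described here encode neuropeptides and peptide hormones, including Pdf, the peptide by which the clock neurons of the fly signal to one another and to the rest of the brain. With earlier results of these data known, they were chosen by name and not by value, from a list of 33 precursor genes. Of these, 25 had a probe set, 1 each, and 22 of the 25 had a level high enough to be tested, among 14010 probe sets on the array. The 22 were Pdf, ITP, sNPF, NPF, Dh31, AstC, Ilp2, Crz, Akh, Capa, Lk, Eh, ETH, Burs, Ms, Mip, Proc, FMRFa, Nplp1, Nplp2, Nplp3 and Nplp4. Ilp3, Ilp5, Ilp6, AstA, Tk, Hug, Dsk and SIFa had no probe set of their own in the annotation used and were not analysed here.

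RNA from heads of *y w* flies, which carry body and eye colour markers and a functional clock, was measured every 4 h with a single Affymetrix Drosophila Genome array per time point, 12 in all. All flies were kept in darkness and entrained to a cycle of 12 h at 18 °C and 12 h at 25 °C. On the thermocycle day (CA), the cryophase at 18 °C was sampled as CA2, CA6 and CA10 and the thermophase at 25 °C as CA14, CA18 and CA22. On the following day (AA) the flies stayed at 25 °C, so that AA2, AA6 and AA10 make up the subjective cryophase and AA14, AA18 and AA22 the subjective thermophase. Each sample pooled many heads, no time point was repeated, and the 3 arrays of a group differ in hour of day, so every p-value measures the spread over hours as well as that between samples. Levels are log2 values, and because probe sets differ in brightness no gene's level is set against that of another.

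Neuropeptides are made as long precursors in small sets of neurons or endocrine cells, cut and amidated inside dense core vesicles, and released to act on G protein-coupled or other receptors of distant cells. In the fly brain the lateral and dorsal clock neurons use several of them to set the timing of activity and sleep, while neurosecretory cells of the pars intercerebralis and pars lateralis release others into the blood as hormones of growth, feeding, stress and water balance. An array of whole heads reads the sum over all cells that make a transcript, and fewer such cells cannot be told apart from less RNA per cell. Several of these genes are also made outside the head.

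The heads did hold transcripts of the tissues that define them, with the 5 measured photoreceptor markers at or above the 95.9th percentile of an array on average and the 11 neuronal markers at a median percentile of 65.3. They also held transcripts of gut, male gland and testis, and muscle, with markers at median percentiles of 91.5, 72.4 and 85.8. Each of these medians was above that of the neuronal markers. The mean log2 deviation over 61 markers of these tissues, termed the body-tissue index, was -1.47 on CA10, 0.78 on CA14, 1.12 on CA18, 0.54 on AA14 and 0.41 on AA18, and ranged from -0.41 to 0.05 over the rest. The arrays of high index were thus taken at hours 14 and 18 of both days. Array medians lay between 5.56 and 5.60.

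On the thermocycle day most peptide transcripts were higher at 18 °C than at 25 °C. Of the 22 genes, 21 had a positive difference, with a median of 0.22 on the log2 scale, against a median of 0.05 over all 11145 probe sets tested, of which 65.4% were positive. The largest differences were those of Eh, Nplp3, Ms and Crz, each at 1.34-fold or above. Akh, encoding the adipokinetic hormone that mobilises stored fat and sugar, was the only gene of the 22 with a lower mean at 18 °C. No peptide gene passed an adjusted p of 0.05 in limma's moderated test of the 4 groups (8 residual degrees of freedom), nor did any other probe set (0% of all), and the smallest adjusted p among the peptide genes was 0.169. At an unadjusted p under 0.05 there were 10 peptide genes of 22, all higher at 18 °C, where 21.4% of all probe sets reached that level.

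**Figure D1:**
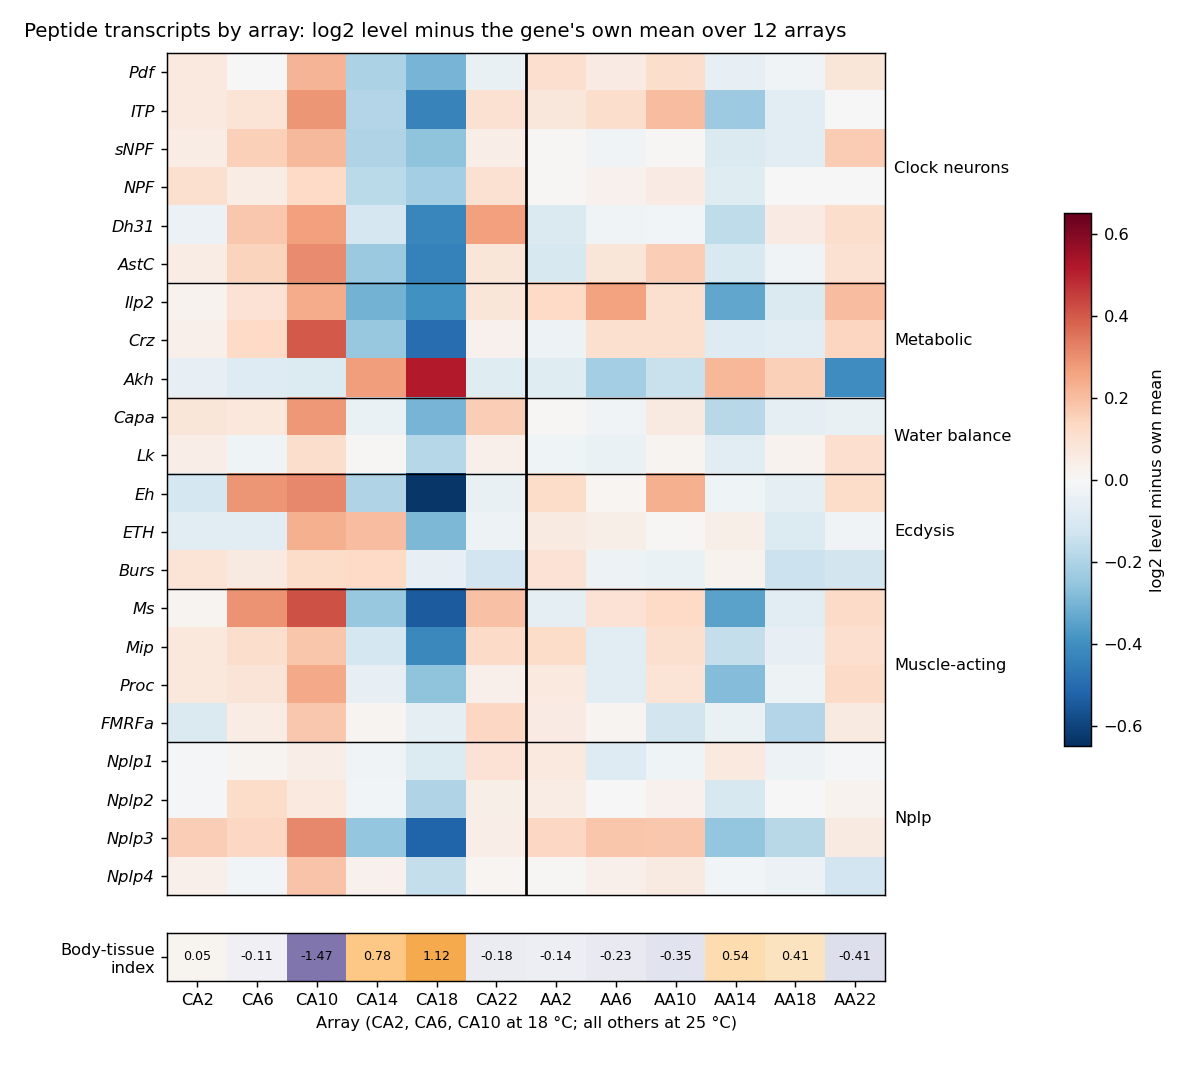
Log2 level of each of the 22 peptide genes minus its own mean over the 12 arrays (colour), by array in order of time and grouped by role, with the body-tissue index of each array (mean log2 deviation of its markers) below. CA18 is the lowest array for 18 genes and CA10 the highest for 17, while Akh is highest on CA18 and lowest on AA22.

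Much of this pattern lay in 2 arrays. CA18 was the lowest of the 12 arrays for 18 of the 22 peptide genes, against 27.1% of all probe sets, and CA10 was the highest for 17, against 24.1% of all. The median deviation of the peptide genes from their own means was 0.23 on CA10, -0.11 on CA14 and -0.30 on CA18. On the remaining arrays it lay between -0.09 and 0.09. These are also the arrays with the extreme values of the body-tissue index.

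Among the peptides of the clock neurons, Pdf is the best known. It is made by the ventral lateral neurons, and its loss disturbs free-running behaviour. Pdf was at 7.28, 7.22 and 7.44 on CA2, CA6 and CA10 and at 7.01, 6.91 and 7.17 on CA14, CA18 and CA22. On the AA day it was at 7.33, 7.27 and 7.33 in the subjective cryophase and at 7.16, 7.20 and 7.30 in the subjective thermophase. The CA groups did not overlap, with CA18 lowest and CA10 highest, whereas AA22 lay above AA6 and the AA groups overlapped. The CA means were 7.31 ± 0.11 and 7.03 ± 0.13 (SD, n = 3), a difference of 0.28 (standard error 0.08), or 1.21-fold, with an adjusted p of 0.169 from limma. In AA the difference was 0.09 (standard error 0.08, adjusted p = 0.984).

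The ion transport peptide ITP, an antidiuretic hormone that clock neurons also make, was at 6.25, 6.27 and 6.47 at 18 °C and at 5.99, 5.75 and 6.28 in the thermophase of CA. Its AA values were 6.26, 6.30 and 6.39 in the subjective cryophase and 5.95, 6.12 and 6.19 in the subjective thermophase. CA22 lay among the cold arrays, so that the groups overlapped in CA, but they did not in AA. ITP differed by 0.32 in CA (standard error 0.12, adjusted p = 0.177 from limma) and by 0.23 in AA (standard error 0.12, adjusted p = 0.984). It was 1 of 3 genes, with Nplp3 and Ilp2, that held the smallest p-values of the AA day.

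The short neuropeptide F precursor sNPF, which acts in feeding, sleep and clock circuits, was the gene whose CA and AA differences were farthest apart for their error. It was at 5.33, 5.43 and 5.49 on the cold arrays of CA and at 5.09, 5.02 and 5.32 on the warm ones. In AA it was at 5.29, 5.26 and 5.29 and then at 5.18, 5.21 and 5.44. The 3 values at 18 °C were the 3 highest of CA, though CA2 (5.329) was above CA22 (5.32) only in the third decimal. All 3 values at 18 °C exceeded the AA values at the same hours. The CA difference was 0.28 (standard error 0.09, adjusted p = 0.169). The test of the CA difference against the AA difference gave 0.28 (standard error 0.13), an unadjusted p of 0.049 and an adjusted p of 0.933, so that it failed the correction.

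NPF, the fly relative of neuropeptide Y, differed by 0.19 in CA (standard error 0.08, adjusted p = 0.191) over values that spanned 6.40 to 6.75. The diuretic hormone Dh31, released by dorsal clock neurons, was at 7.47, 7.68 and 7.77 at 18 °C and at 7.40, 7.08 and 7.77 in the thermophase. It was at 7.41, 7.49 and 7.49 and at 7.34, 7.56 and 7.62 in AA. The warm CA22 was as high as CA10, the highest array, and the groups overlapped on both days. The CA difference of 0.22 (standard error 0.15, adjusted p = 0.377) had the largest p of the clock neuron peptides.

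Allatostatin C, AstC, which dorsal clock neurons use to act on egg production, was at 8.08, 8.18 and 8.34 at 18 °C and at 7.79, 7.59 and 8.11 at 25 °C in CA. In AA the values were 7.93, 8.11 and 8.19 and then 7.93, 8.01 and 8.13. CA14 and CA18 were the lowest 2 of the 12 arrays, and CA22 lay just above CA2. The difference was 0.37 in CA (standard error 0.12, adjusted p = 0.170).

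**Figure D2:**
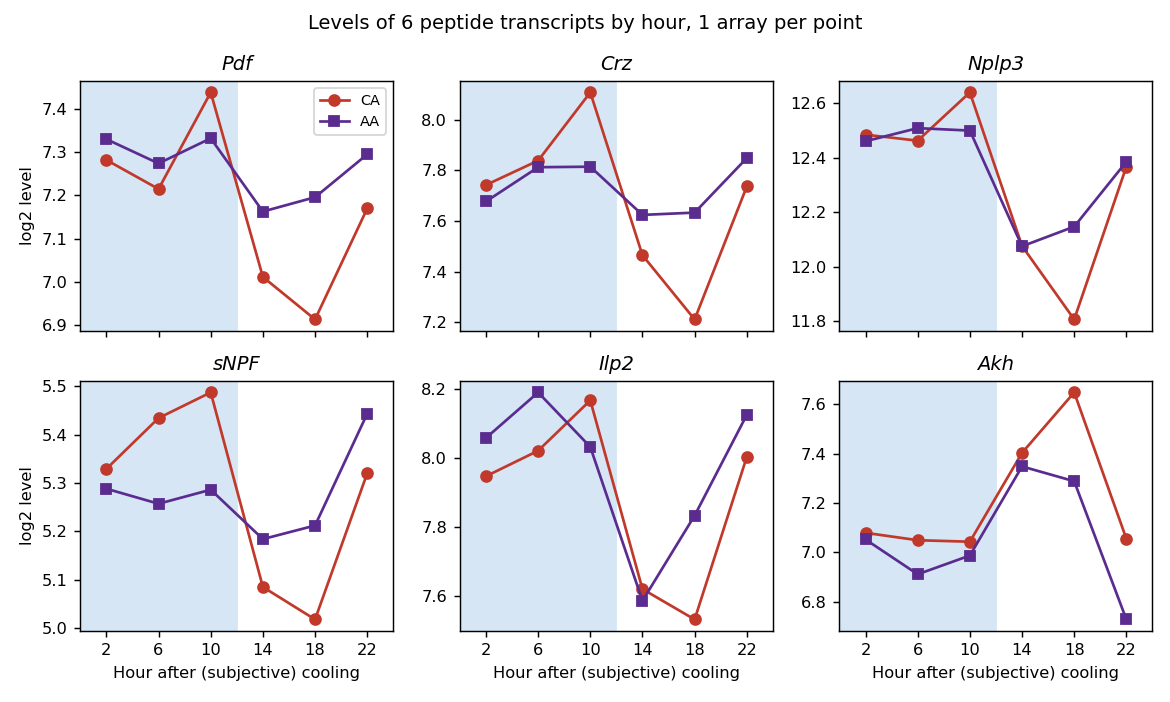
Log2 level against hour after cooling, or after its subjective counterpart, for 6 peptide genes, with 1 array per point, CA as red circles, AA as purple squares and the (subjective) cryophase shaded. Pdf, Crz, Nplp3 and sNPF are lowest on CA18 and Ilp2 is low at hours 14 and 18 of both days, where Akh is high.

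Of the metabolic hormones, the insulin-like peptide Ilp2, secreted by cells of the pars intercerebralis, was at 7.95, 8.02 and 8.17 at 18 °C and at 7.62, 7.53 and 8.004 at 25 °C in CA. In AA it was at 8.06, 8.19 and 8.03 and then at 7.59, 7.83 and 8.13. On both days the values at hours 14 and 18 were the low ones, and the value at hour 22 was back among those of the cryophase, so that the groups overlapped on both days. The differences were 0.33 in CA (standard error 0.14, adjusted p = 0.215) and 0.25 in AA (standard error 0.14, adjusted p = 0.984). Corazonin, Crz, a stress and metabolic peptide of the pars lateralis, was at 7.74, 7.84 and 8.11 at 18 °C and at 7.47, 7.21 and 7.74 at 25 °C. Its AA values were 7.68, 7.81 and 7.81 and then 7.62, 7.63 and 7.85. The CA groups of Crz were separated only by the difference between CA2 and CA22, which is under 0.01, and the AA groups overlapped. Crz differed by 0.42 in CA (standard error 0.13, adjusted p = 0.169) and the test against its AA difference gave 0.36 (standard error 0.18, adjusted p = 0.933).

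Akh is made in the corpora cardiaca, endocrine cells that lie beside the foregut. It was at 7.08, 7.05 and 7.04 at 18 °C and at 7.40, 7.65 and 7.06 at 25 °C in CA. In AA it was at 7.05, 6.91 and 6.99 and then at 7.35, 7.29 and 6.73. The 4 arrays at hours 14 and 18 were its highest, CA18 first, and AA22 was its lowest, so that its groups overlapped on both days. The difference was -0.31 in CA (standard error 0.16, adjusted p = 0.285) and -0.14 in AA (standard error 0.16, adjusted p = 0.984).

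Among the hormones of water balance, Capa, whose products act on the renal tubules, was at 6.99, 6.98 and 7.20 at 18 °C and at 6.88, 6.61 and 7.08 at 25 °C. The AA values were 6.93, 6.89 and 6.98 and then 6.73, 6.86 and 6.87. The CA groups overlapped through CA22, and the AA groups did not overlap. The CA difference was 0.20 (standard error 0.10, adjusted p = 0.276). Leucokinin, Lk, a diuretic peptide, spanned 6.41 to 6.71 over the 12 arrays. The corticotropin-releasing factor-like Dh44 spanned 3.92 to 4.36, with only 4 of 12 values past the 20th percentile of all probe sets, and was not tested.

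The peptides of ecdysis drive the shedding of the old cuticle and are studied mostly before and at adult emergence. Eclosion hormone, Eh, was at 6.11, 6.51 and 6.54 at 18 °C and at 6.03, 5.59 and 6.18 at 25 °C in CA, and at 6.34, 6.24 and 6.46 and then 6.20, 6.17 and 6.35 in AA. CA18 was its lowest array, CA22 lay above CA2, and the groups overlapped on both days. Its CA difference, 0.45 (standard error 0.15, adjusted p = 0.169), was the largest of the 22. The ecdysis-triggering hormone ETH spanned 5.27 to 5.80 and the bursicon subunit Burs 6.48 to 6.75, and neither reached an unadjusted p of 0.05 in CA. CCAP, which acts late in ecdysis and on the heart, spanned 2.53 to 2.76 with 0 of 12 values above the 20th percentile, and was not tested.

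Of the peptides first known for their action on muscle, myosuppressin (Ms) had the widest span of the 22, from 8.71 to 9.67, and a CA difference of 0.44 (standard error 0.17, adjusted p = 0.192). Mip, the myoinhibitory peptide precursor, spanned 5.21 to 5.81. Proctolin, Proc, spanned 5.68 to 6.21 and its CA groups did not overlap. FMRFa spanned 5.84 to 6.21, and with a CA difference of 0.01 it was the nearest to 0 of the 22 and changed sign without CA10 or CA18. The amnesiac peptide gene amn, known from memory mutants, spanned 1.73 to 2.08, with 0 of 12 values above the 20th percentile, and was not tested.

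The neuropeptide-like precursors share a name from the peptide screen in which they were found, not a sequence family. Nplp3 was the 1 gene of the 22 whose groups were apart in the same direction on both days. Over all probe sets the cryophase was higher without overlap for 12.6% in CA and 6.64% in AA. The share apart on both days was not computed. Nplp3 was at 12.48, 12.46 and 12.64 at 18 °C and at 12.08, 11.81 and 12.37 at 25 °C in CA. In AA it was at 12.46, 12.51 and 12.50 and then at 12.08, 12.15 and 12.39. On both days every value of the first 3 hours exceeded every value of the last 3. The means were 12.53 ± 0.10 against 12.08 ± 0.28 in CA and 12.49 ± 0.03 against 12.20 ± 0.16 in AA (SD, n = 3). The differences were 0.45 in CA (standard error 0.12, adjusted p = 0.169) and 0.29 in AA (standard error 0.12, unadjusted p = 0.040, adjusted p = 0.984). Nplp3 also ran against the body-tissue index on both days, with Pearson's r of -0.90 over the 12 arrays, -0.90 in CA and -0.92 in AA. Nplp1, whose values spanned only 7.06 to 7.25, had the narrowest range of the 22. Nplp2 spanned 13.34 to 13.66 and Nplp4 spanned 10.19 to 10.53, and neither reached an unadjusted p of 0.05 in CA.

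In CA the groups did not overlap, with 18 °C higher, for 5 peptide genes of 22 (Pdf, Nplp3, Crz, sNPF and Proc), where 12.6% of all probe sets did so. None of the 22 had 18 °C lower without overlap, where 5.08% of all probe sets did. In AA, with all arrays at 25 °C, the subjective cryophase was higher without overlap for 5 (Nplp3, ITP, Nplp4, Capa and NPF), against 6.64% of all probe sets, and lower for 0, against 3.71%. The groups of NPF were apart only by the small step between AA2 (6.629) and AA18 (6.624). The differences in AA were positive for 17 of the 22, with a median of 0.07 against 0.02 over all probe sets, and without AA14 the median was 0.03. In AA no probe set passed an adjusted p of 0.05 in limma (0% of all), and 1 peptide gene, Nplp3, had an unadjusted p under 0.05, where 2.93% of all did.

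**Figure D3:**
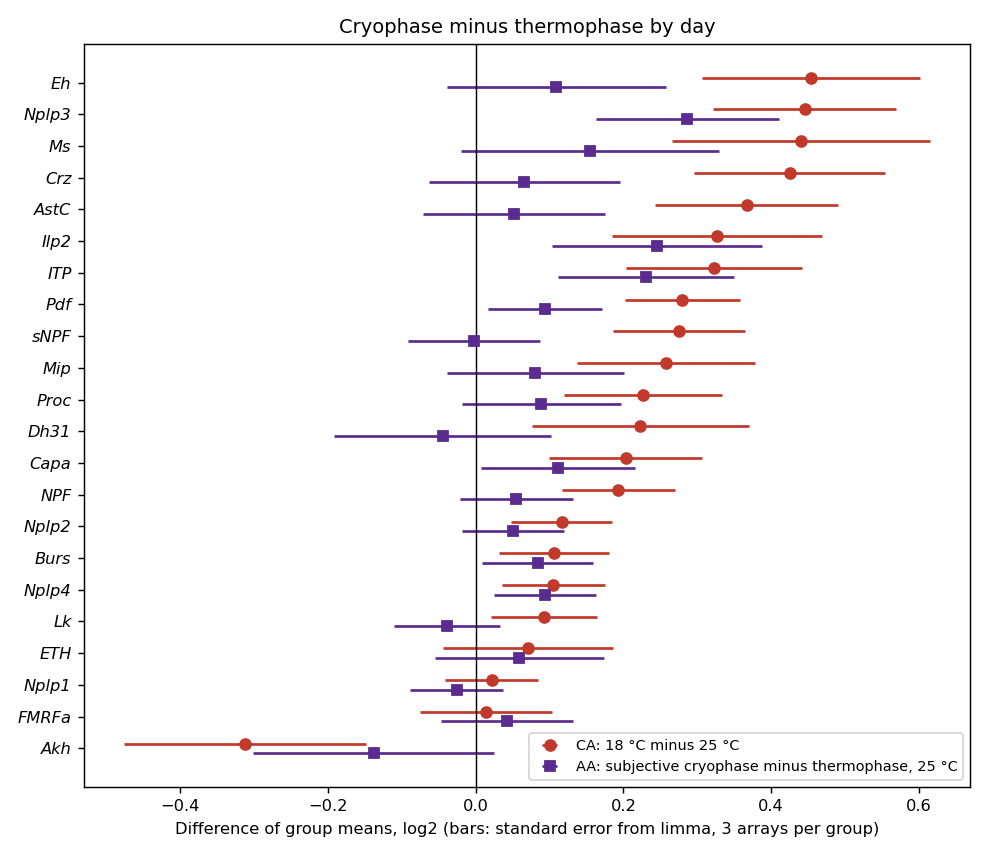
Difference between the mean of the 3 cryophase and the 3 thermophase arrays on the log2 scale for each of the 22 peptide genes, in CA (red circles) and in AA (purple squares), with bars for the standard error from limma. In CA 21 genes lie right of 0 and Akh left of it, and in AA 17 lie right of it.

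To compare the days at matched hours, the 3 arrays at 18 °C were set against the subjective cryophase at 25 °C. The 22 genes had a median difference of 0.06, with 19 of them positive. Over all probe sets the median was 0.001. Without CA10 the median of the 22 was 0.03 and 14 were positive. No probe set passed an adjusted p of 0.05 (0% of all), and of the peptide genes 0 had an unadjusted p under 0.05, against 6.01% of all. Pdf means were 7.31 in both groups. The 3 smallest p-values belonged to sNPF, at 0.14 (standard error 0.09, adjusted p = 0.923), Capa, at 0.13 (standard error 0.10, adjusted p = 0.958), and Dh31, at 0.18 (standard error 0.15, adjusted p = 0.958). For sNPF and Capa the 18 °C values lay above the 25 °C values without overlap, which 7.10% of all probe sets did, and for 0 peptide genes they lay below, which 6.33% of all did. The groups of Capa were apart only by the small step between CA6 (6.983) and AA10 (6.975).

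In the warm hours of the cycle both groups were at 25 °C, and 17 of the 22 peptide genes were lower in the thermophase of CA than in the subjective thermophase of AA, with a median of -0.08 against -0.02 over all probe sets. Here too no probe set passed an adjusted p of 0.05 (0% of all). Pdf was the 1 peptide gene with an unadjusted p under 0.05 (6.07% of all), at -0.19 (standard error 0.08, unadjusted p = 0.035, adjusted p = 0.747). Next were Eh at -0.30 (standard error 0.15, adjusted p = 0.747) and Crz at -0.23 (standard error 0.13, adjusted p = 0.747). No peptide gene was without overlap in either direction, where 2.82% of all probe sets were higher in CA and 6.77% were lower. Without CA18 the median turned to 0.04 and 14 of the 22 were higher in CA. Hour by hour, CA18 lay below AA18 for 19 of the 22 (60.2% of all probe sets), whereas CA14 lay above AA14 for 15 (45.6% of all) and CA10 above AA10 for all 22 (56.6% of all). The CA difference exceeded that of AA for 20 of 22 genes, by a median of 0.13 (0.02 over all probe sets). Without CA18 alone this median was 0.03 and 14 genes were above 0. By the test of this difference 0% of all probe sets passed an adjusted p of 0.05 and 1 peptide gene, sNPF, had an unadjusted p under 0.05 (3.60% of all). These comparisons share arrays and are not independent of each other.

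A 24-h cosine was fitted to each day to give each transcript an amplitude, taken from mean to peak on the log2 scale, and a peak time. In CA the peptide genes had a median amplitude of 0.20, where all probe sets had 0.10, and in AA both medians were 0.07. Without CA18 the CA median of the peptide genes was 0.13. By limma's moderated F test 0 peptide genes passed an adjusted p of 0.05 in CA, where 41 probe sets did (0.368%), and 8 peptide genes had an unadjusted p under 0.05, against 19.3% of all. The largest CA amplitude was that of Eh, 0.39 (standard error 0.09, adjusted p = 0.170), followed in order of p by Nplp3 at 0.33 (standard error 0.09, adjusted p = 0.189), sNPF at 0.21 (standard error 0.06, adjusted p = 0.214), Crz at 0.32 (standard error 0.09, adjusted p = 0.217) and AstC at 0.28 (standard error 0.09, adjusted p = 0.237). Pdf had an amplitude of 0.19 (standard error 0.06, adjusted p = 0.245).

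Fitted peak times in CA were close together. The fitted peak lay between hours 4 and 8, the middle of the cold phase, for 16 of the 22 genes, against 31.4% of all probe sets, and within the 12 cold hours for 21, against 65.4%. Pdf peaked at hour 5.99, Nplp3 at 5.55 and Eh at 6.81, while Akh peaked at 16.7. All genes were fitted to the same arrays, with CA18 lowest for 18 of the 22 and CA10 highest for 17. Their peaks are thus not independent of each other. By limma's F test without CA18, 1 of the 22 had an unadjusted p under 0.05 in CA, against 8.03% of all. In AA the peak fell between hours 4 and 8 for 9 genes, against 20.9% of all probe sets, and no probe set passed an adjusted p of 0.05 (0% of all). Of the peptide genes 0 had an unadjusted p under 0.05 in AA, against 3.52% of all. The 3 smallest p-values in AA were those of Ilp2, with an amplitude of 0.24 and a peak at 3.21, Nplp3, with 0.22 and 4.60, and Akh, with 0.21 and 14.6 (adjusted p = 0.985 for each). For a measure over both days, each day's values were scaled to the same mean and variance and the days were appended. The share of this scaled variance in the 24-h Fourier component was 0.744 for Nplp3, 0.611 for Ilp2 and 0.563 for Pdf. Its median was 0.397 over the 22 genes and 0.312 over all probe sets.

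**Figure D4:**
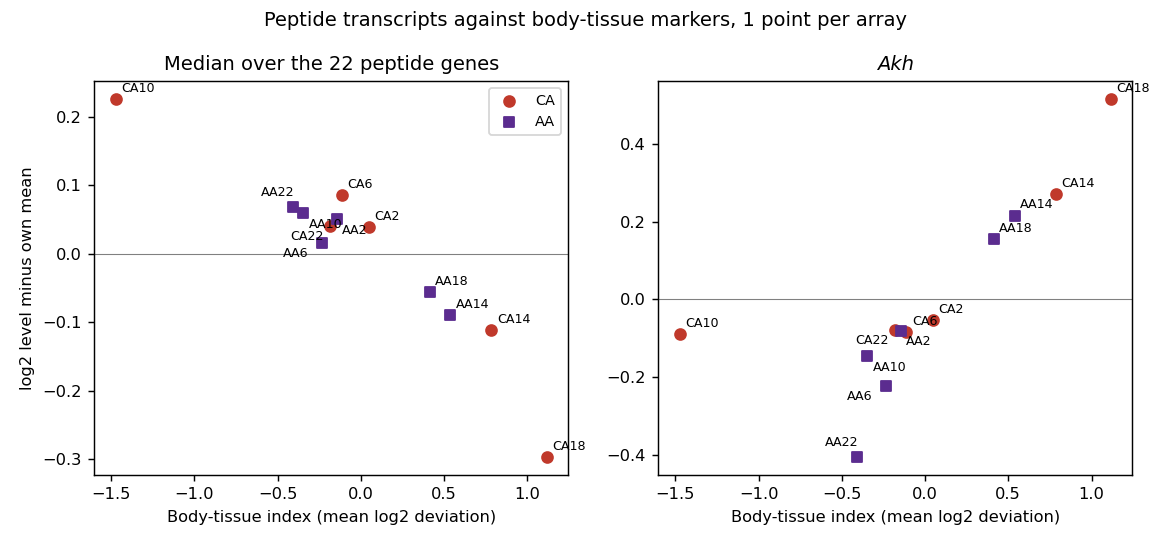
Median log2 deviation of the 22 peptide genes (left) and deviation of Akh (right), each from the gene's own mean over the 12 arrays, against the body-tissue index of the same array, with 1 point per array (CA red circles, AA purple squares). CA18 and CA14 lie at the low end for the peptide genes and at the high end for Akh, and CA10 is highest in the left panel.

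Peptide transcripts ran against the body-tissue index over the 12 arrays. Pearson's r was negative for 21 of the 22 genes, with a median of -0.83, and positive for Akh. By a two-sided permutation test with 100000 resamples, adjusted over these 22 relations, 18 genes had an adjusted p under 0.05 for r, 17 of them negative, and 15 did for Spearman's rho. The resamples shuffled all 12 arrays freely, without regard to hour or day. The permutation p-values thus take no account of a course over hours shared by index and transcripts. Many other probe sets ran with the index too. Over all 11145 the median r was -0.37 and 70.6% were negative, and 31.2% had an r at least as large in size as the smallest of these 18 (0.68). Crz had r = -0.95 (rho = -0.90), Pdf r = -0.90 (rho = -0.85) and Akh r = 0.77 (rho = 0.92), with permutation adjusted p-values for r of 0.000176 for both Crz and Pdf and 0.00587 for Akh. Burs (r = -0.14), Nplp1 (r = -0.36), ETH (r = -0.52) and FMRFa (r = -0.58) were the 4 without an adjusted p under 0.05. Without CA10 and CA18, the 2 arrays farthest from the median of the index, the median r was -0.68, 18 of 22 kept their sign, and 11 had an adjusted p under 0.05, with r of -0.91 for Crz, -0.82 for Pdf and 0.94 for Akh. Within days r was negative for 21 genes in CA and 19 in AA. For Crz it was -0.96 in CA and -0.91 in AA, for Pdf -0.95 and -0.92, and for Akh 0.81 and 0.94, over 6 arrays each. Shares over all probe sets were computed only for Pearson's r over the 12 arrays. They were not computed for rho, without CA10 and CA18, or within days, so those counts have no background.

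Gut, male and muscle transcripts thus ran opposite to the peptide transcripts, and their own differences between 18 °C and 25 °C in CA were large. Of 27 gut enzyme genes 26 were lower at 18 °C (median -1.19), as were 19 of 19 male gland and testis genes (median -1.47) and 14 of 15 muscle genes (median -0.38). Markers of nerve, eye and glia ran the other way, with all 9 tested neuronal genes (median 0.14), 5 of 5 photoreceptor genes (median 0.39) and 6 of 6 glial genes (median 0.24) higher at 18 °C. The fat body genes followed neither pattern, with 4 of 7 higher and 3 lower (median 0.02). The mean log2 deviation of the neuronal markers was -0.25 on CA18, -0.10 on CA14 and 0.10 on CA10. With the index as a covariate, the 22 peptide genes had a median CA difference of 0.04 and 15 were above 0, none with an unadjusted p under 0.05 (4.40% of all probe sets), and the values were 0.12 for Pdf, 0.18 for Nplp3, 0.19 for Eh and -0.02 for Akh (standard errors 0.07, 0.09, 0.13 and 0.15). The index itself differed between the temperatures, so a difference due to temperature and one that ran with body tissue cannot be told apart in that fit.

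Single arrays moved the counts of called genes. Without CA22, the warm array whose values were nearest to the cold ones, 13 of the 22 peptide genes passed an adjusted p of 0.05 in limma's CA comparison, where 17.7% of all probe sets did, among them Nplp3 (0.59, adjusted p = 0.010), Crz (0.56, adjusted p = 0.014) and Pdf (0.35, adjusted p = 0.015). In the CA cosine without CA22 it was 5 of 22, namely Dh31, Crz, Eh, Ms and Nplp3, where 6.56% of all did. The body-tissue index was -0.18 on CA22. Removing that array left only CA14 (0.78) and CA18 (1.12), the arrays of highest index, in the thermophase of CA. Whether the calls without CA22 ran with body tissue rather than with temperature was not tested. Without CA18 the median CA difference was 0.12 and without CA10 it was 0.17, with 5 genes at an unadjusted p under 0.05 in each (8.60% and 10.05% of all probe sets). Without either array (chosen after seeing the data) the median was 0.09, 15 of 22 were above 0 and 0 had an unadjusted p under 0.05 (4.72% of all), with Pdf at 0.16 (standard error 0.08) and Nplp3 at 0.25 (standard error 0.11).

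Genes that act on or with these peptides were read in the same CA comparison, where 0 of those tested passed an adjusted p of 0.05 and the median over all probe sets was 0.05. At an unadjusted p under 0.05 the share over all probe sets was 21.4%, near that of the receptors and above that of the further peptide genes given next. Of 40 peptide receptor genes listed, 20 were tested, 13 were higher at 18 °C with a median of 0.06, and 5 had an unadjusted p under 0.05, all higher at 18 °C. These included Pdfr, the receptor of Pdf, at 0.23 (standard error 0.07, adjusted p = 0.169), CCAP-R at 0.17 (standard error 0.07, adjusted p = 0.187) and Lgr4 at 0.17 (standard error 0.07, adjusted p = 0.188). The 16 tested genes of peptide processing and dense core vesicles had a median of 0.16 and none was lower at 18 °C. Of these 6 had an unadjusted p under 0.05, with the smallest for 7B2, a helper of the prohormone convertase amon, at 0.43 (standard error 0.12, adjusted p = 0.169). Next were Pal2, an enzyme of peptide amidation, at 0.30 (standard error 0.08, adjusted p = 0.169) and the peptidase Nep2 at 0.27 (standard error 0.08, adjusted p = 0.169). Of 9 further peptide genes tested, 7 were higher at 18 °C, with a median of 0.06, and 1, Orcokinin, had an unadjusted p under 0.05, at 0.33 (standard error 0.12, adjusted p = 0.176).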

How the data were processed

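RNA levels in pooled heads were measured on 12 single-colour Affymetrix arrays. The authors computed expression values by RMA, which corrects background, normalizes across arrays and summarises probes, in an unstated version. The deposited values were taken as log2 levels, a base inferred from their range. Samples were grouped by day and temperature phase from the labels. Genes were named from the platform annotation, in which 12444 probe sets had 1 gene, 327 had several and 44 were controls. As in the study's filter, probe sets were kept (11145) where most of the 12 values exceeded the array's 20th percentile, and the probe set with the highest mean stood for a gene. The list of peptide genes, the other gene lists and the tests were chosen with earlier results of these data known.

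Groups of 3 arrays were compared with limma 3.58.1 in R 4.3.3, fitting 4 groups to all arrays, and 24-h cosines were fitted per day (6 residual degrees of freedom). Benjamini-Hochberg adjustment ran over all probe sets tested, and an adjusted p under 0.05 was called. All 12 values are given for Pdf, for the peptide genes with the smallest p in each comparison except the difference of both days (5 in each CA test, 3 in the others), and for any gene apart in the same direction on both days. Further peptide genes are given by range, and some by their difference, chosen after their values were seen. Alternatives were averaged probe sets, a threshold of 0.2, arrays shifted to one median, a robust trended prior, the filter on mean level or none, the body-tissue index as a covariate, fewer groups in the fit, hour of day as a block, and each array left out in turn. The fits were tested on simulated data. Python 3.11.15 and matplotlib 3.10.9 drew the figures. Precision is limited by the number of arrays.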

Additional observations from a re-analysis of the deposited data

How the results depend on the processing

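Replicate numbers only name samples, so none were paired by number, but the arrays of both days share their hours. With hour of day as a block, 0 peptide genes passed the threshold at 18 °C against the subjective cryophase, in the thermophases, or in the difference between days, and 2, 4 and 3 had an unadjusted p under 0.05 (7.52%, 14.8% and 10.4% of all probe sets). At an adjusted p under 0.2, 9 peptide genes passed in the CA difference (15.9% of all probe sets) and 2 in the CA cosine (7.42%). Leaving out 1 array at a time gave 0 to 13 peptide calls in the CA difference and 0 to 5 in the CA cosine, all of them without CA22. Removing CA22 left only CA14 and CA18, the arrays of highest body-tissue index, in the thermophase of CA. The count of peptide genes correlated with the body-tissue index fell from 18 to 11 without CA10 and CA18. The share over all probe sets was not computed for that setting. Over all probe sets, the CA difference had 9 calls with no filter, 10 with the trended prior, 5 with a common median and 34 without CA2, and the 41 of the CA cosine became 85 with the trended prior, 193 with the index as a covariate, and 1 without CA18 to 731 without CA22.

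With the index as a covariate the CA difference turned to -0.0745 for Dh31, -0.00617 for Capa and -0.142 for FMRFa. It also turned to -0.0695 for ETH, -0.0238 for Lk and -0.0300 for Nplp1. Without CA10 and CA18 together it turned to -0.011 for Dh31, -0.099 for FMRFa and -0.155 for ETH. In that fit it was also below 0 for Lk (-0.0105), Nplp1 (-0.033) and Nplp4 (-0.0135). Leaving out 1 array moved the CA difference of FMRFa between -0.052 and 0.0835. The cause was not tested. With 1 array per time point, error at a given hour was not measured.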
